A study of Drosophila melanogaster with 9 samples.

Results

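The 10 genes described here are the ecdysone receptor and response genes of Drosophila melanogaster, chosen by name: EcR, usp, Eip74EF, Eip75B, br, Eip78C, Hr4, ftz-f1, E23 and Eip71CD. They are 10 of the 17562 genes in the count table, and all 10 passed the filter on low counts that left 8705 genes for testing. They were chosen with earlier results of these data known. RNA was sequenced from S2R+ cells, a line of embryonic origin with features of hemocytes, the blood cells of the fly, in 3 media with 3 libraries each. Cells in M3 + 10% FEx, called 10% FEx here, grew in Shields and Sang M3 medium with fly extract (FEx) at 10%, and cells in M3 + 2.5% FEx, called 2.5% FEx, in the same medium with less extract. FEx was prepared from homogenized, heated and filtered Oregon-R adults of both sexes. MB10 held the same M3 medium with bactopeptone, yeast extract and 10% fetal serum, and no fly extract. Each FEx medium held 1 adapted line of S2R+, that in 2.5% FEx having been taken from that in 10% FEx, so a medium effect and a change fixed in a line cannot be told apart. The 3 libraries of a medium came from triplicate samples of 1 line, so p-values measure the spread between these samples, which may be in part technical.

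The steroid hormone 20-hydroxyecdysone times molting and metamorphosis in the fly. It binds the nuclear receptor EcR, which acts on DNA as a dimer with Usp, the fly ortholog of the vertebrate retinoid X receptor. The hormone-bound dimer induces a small set of early genes, many of which encode transcription factors that in turn regulate later genes, and embryonic cell lines of the fly have long been used to study this response. Whether genes of the response differed between media is the question of the comparisons below. Hormone levels in the media were not analysed here.

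Library totals ran from 20694827 to 29076620 counts, so that 3 counts stood for 0.103 to 0.145 CPM, edgeR's TMM-normalized share of a library's counts. Expression is given in CPM for each library, in the order of the replicate numbers, or as mean ± SD with n = 3. A log2 fold change is given with its standard error (SE) and an adjusted p from the two-sided quasi-likelihood test of edgeR (Benjamini-Hochberg over the 8705 genes). A gene passed the test at an adjusted p under 0.05, and was DE if its log2 fold change was also above 1 or below -1. Of the 13 hemocyte marker genes listed, 11 were tested, and their summed expression was 1252 to 1366 CPM in 10% FEx, 1363 to 1429 CPM in 2.5% FEx and 1446 to 1627 CPM in MB10. Of the listed markers, srp and crq were among those expressed in every library, whereas NimC1 and gcm had at most 3 counts in any. Of the 11, 2 were higher and 6 lower in 10% FEx than in MB10, where 25.5% of all genes tested were higher and 27.6% lower, and 1 was higher and 2 lower in 2.5% FEx, where the shares were 22% and 22.2%. Pxn, which encodes peroxidasin, was at 89.3 ± 6.17 CPM in 10% FEx, 162 ± 12.9 CPM in 2.5% FEx and 377 ± 34.8 CPM in MB10, with log2 fold changes of -2.08 and -1.22 that both passed. Hml, which encodes hemolectin, was at 3.23 ± 0.483, 13.5 ± 0.606 and 12.03 ± 2.52 CPM in the same order of media, and passed in 10% FEx (-1.89). He went the other way, with log2 fold changes of 2.02 in 10% FEx, where it was DE, and 0.17 in 2.5% FEx. ush was at 0.61 and 0.49. The part of these markers in the results below was not tested. Of 14 genes of adult fly tissues whose RNA the extract could carry, 13 summed to at most 1.30, 0.676 and 1.40 CPM in a library of the 3 media in the same order, and the remaining gene, TpnC4, was expressed in every medium. SP, Mst84Da, dj and Lsp2 of that list were at 0 counts in every library.

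Against MB10, 5 of the 10 genes were higher in both FEx media, namely Eip75B, br, Eip78C, Hr4 and E23. In 10% FEx, 7 of the 10 genes passed the test, against 53.1% of all genes tested, and in 2.5% FEx 6 passed, against 44.2%. Such shares of 10 genes are near those of all genes. The 5 higher genes stood against 25.5% of all genes called higher in 10% FEx and 22% in 2.5% FEx. EcR and Eip71CD were lower in 10% FEx, where 27.6% of all genes were called lower, and Eip71CD alone was lower in 2.5% FEx, where the share was 22.2%. The thresholds for DE were passed by Hr4 and E23 in 10% FEx, where 11% of all genes were DE (7.34% DE and higher), and by E23 alone in 2.5% FEx, where 8.52% were (5.59% DE and higher). Hr4 was kept for testing through FEx libraries, as described below. The median log2 fold change of the 10 genes was 0.21 in 10% FEx and 0.25 in 2.5% FEx, beside -0.04 over all genes tested in each. The same 3 MB10 libraries are the reference for both, and in RNA of whole cultures fewer expressing cells and less RNA per cell cannot be told apart.

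**Figure D1:**
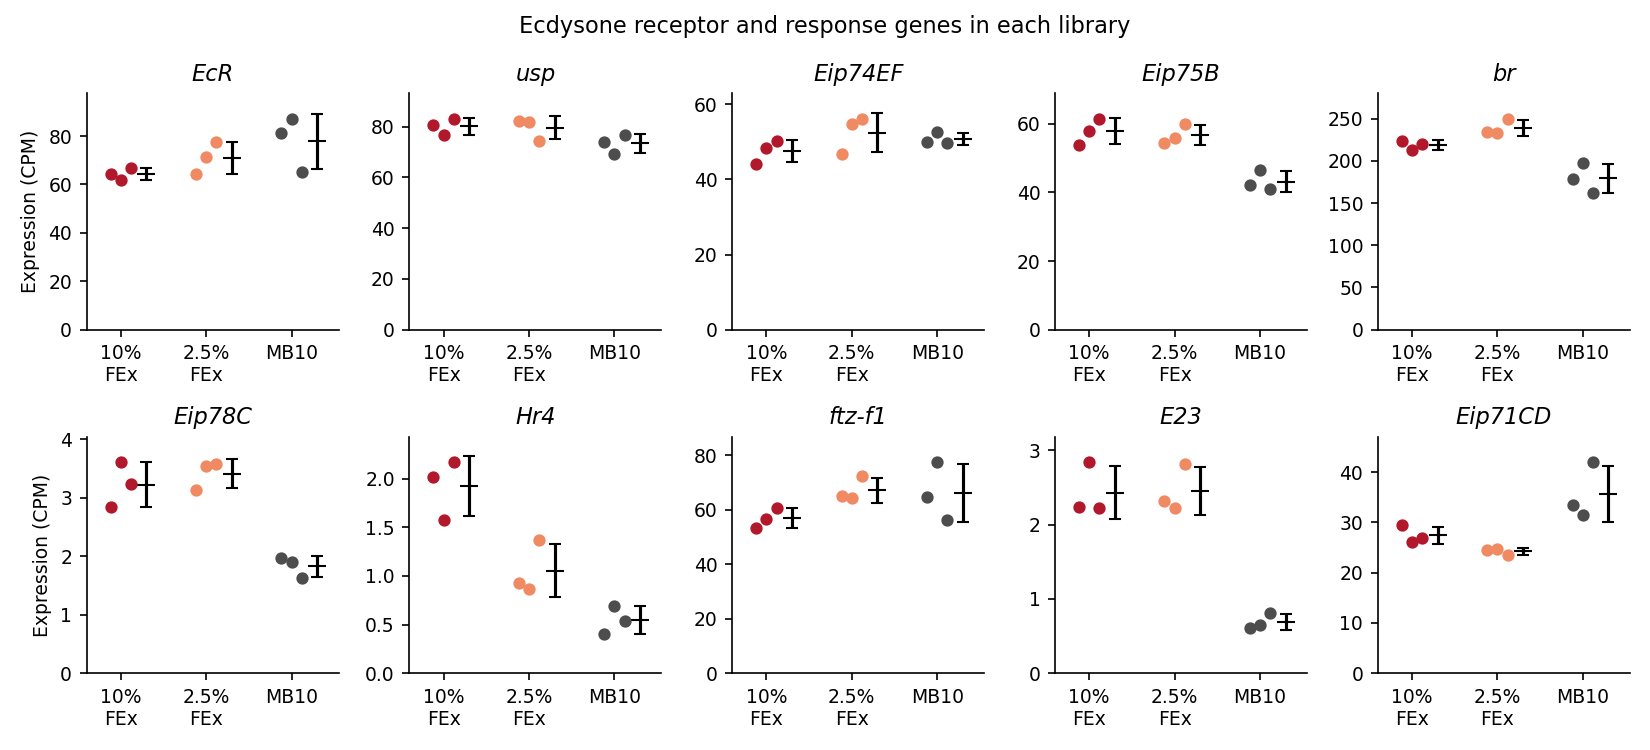
Expression in CPM (vertical axes start at 0) of the 10 ecdysone genes in each library of 10% FEx, 2.5% FEx and MB10. Points are single libraries and the bars beside them are mean ± SD (n = 3). E23, Eip78C, Hr4, Eip75B and br sit higher in all 6 FEx libraries than in any MB10 library. Of all genes tested, 27.3% lay above MB10 in every 10% FEx library and 25.2% in every 2.5% FEx library. The 3 MB10 libraries spread most widely for EcR, br, ftz-f1 and Eip71CD.

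Transcript length has to be read beside these values. Over all genes tested with a known length, the log2 fold change against MB10 increased with merged exon length. In 10% FEx the median was -0.26 in the bin of shortest genes and 0.35 in the bin of longest genes, of 10 bins of equal gene number. In 2.5% FEx it was -0.24 and 0.30, while between the FEx media it was -0.07 and 0.06. Across 8663 genes the Spearman coefficient of log2 fold change and length was 0.41 in 10% FEx and 0.42 in 2.5% FEx against MB10, a description across genes that share their libraries. Of the 10 ecdysone genes, 7 (EcR, Eip74EF, Eip75B, br, Eip78C, ftz-f1 and Hr4) lie in the bin of longest genes, of 5734 bases or more.

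The trend differed between single libraries. As deviations from the mean of the 9 libraries, the median of the longest genes minus that of the shortest was 0.19, 0.23 and 0.28 on the log2 scale in the 10% FEx libraries and 0.18, 0.06 and 0.13 in the 2.5% FEx libraries. It was -0.46, -0.12 and -0.57 in the MB10 libraries. MB10 replicate 2 was thus the MB10 library nearest to the FEx libraries, and it also had the highest EcR, br, ftz-f1, Eip74EF, Eip75B and Hr4 of the MB10 libraries. The fits were therefore repeated with an offset for each library's trend with length, by merged exon length and by longest transcript, an alternative chosen after seeing the data. With either offset 3 of the 10 genes were higher and 4 lower in 10% FEx, and 2 were higher and 4 lower in 2.5% FEx. Over all genes tested the offset by merged exons gave 24.1% higher and 21.8% lower in 10% FEx, and 18.5% higher and 15.9% lower in 2.5% FEx. With that offset the median log2 fold change of the 10 genes was -0.11 in 10% FEx and -0.04 in 2.5% FEx. Over all genes tested it was then 0.01 and -0.001. The cause of the trend was not tested.

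**Figure D2:**
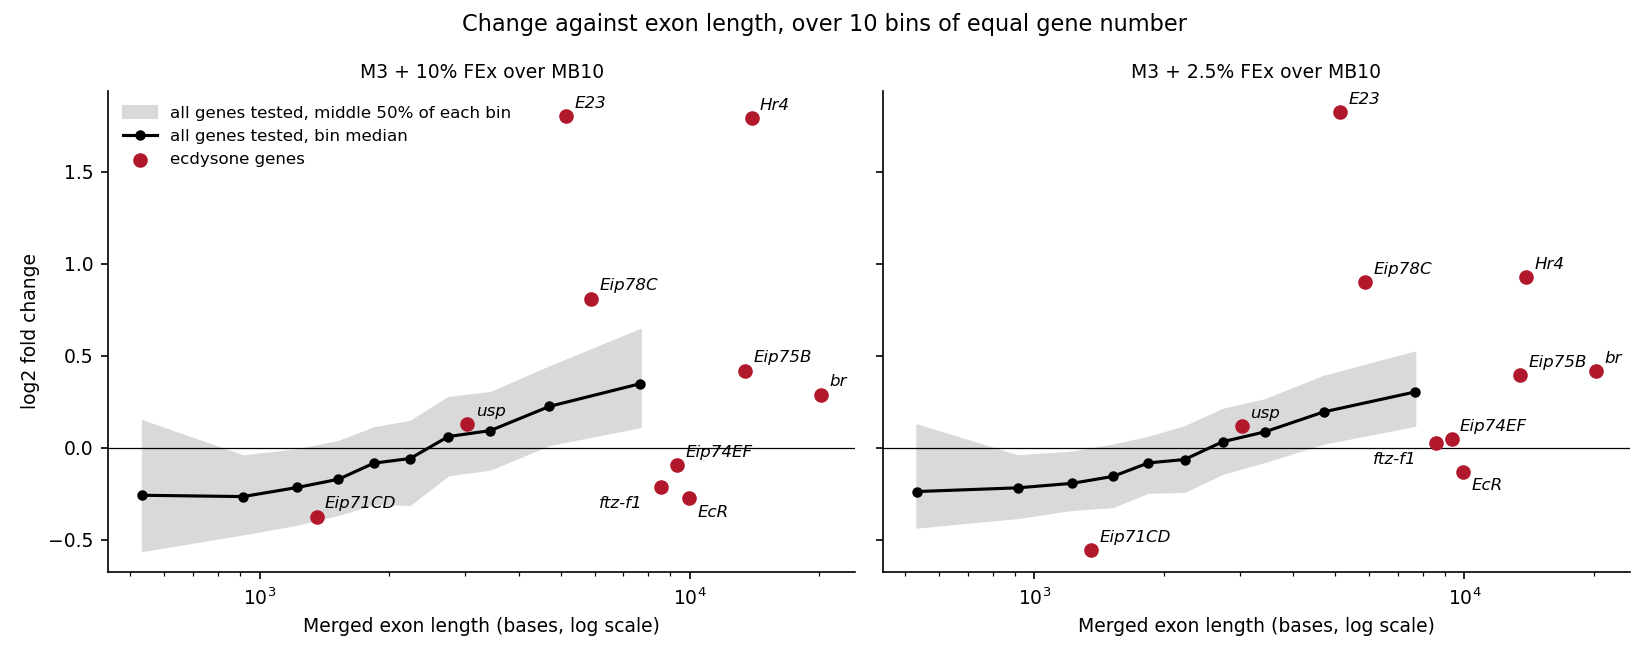
Log2 fold change against merged exon length (bases, log scale) for 10% FEx and 2.5% FEx over MB10. The black line joins the medians of 10 bins of all genes tested, the grey band is the middle 50% of each bin, and red points are the 10 ecdysone genes. E23, Hr4 and Eip78C lie above the band, Eip75B and br near the height of the last bin, and EcR, Eip74EF and ftz-f1 below it.

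Both receptor genes were expressed in every library, at 61.7 to 87.1 CPM. EcR (FBgn0000546, 2R from 6087873 to 6169087, minus strand) encodes the hormone-binding subunit. It was expressed at 64.3, 61.7 and 66.6 CPM in 10% FEx, at 64.4, 71.4 and 77.4 CPM in 2.5% FEx, and at 81.2, 87.1 and 65.1 CPM in MB10. The 10% FEx and MB10 libraries overlapped through MB10 replicate 3. The log2 fold change over MB10 was -0.28 in 10% FEx (SE 0.102, adjusted p = 0.0384) and -0.13 in 2.5% FEx (SE 0.102, adjusted p = 0.319). The call in 10% FEx held in only 2 of 15 other settings, with adjusted p of 0.000570 to 0.166 over them. It was -0.67 with the offset by merged exon length (adjusted p = 1.27e-05), and in 2.5% FEx EcR then passed too, at -0.48 (adjusted p = 0.000282).

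usp (FBgn0003964, X from 2038798 to 2042311, minus strand) encodes the dimer partner of EcR. Its values were 80.6, 76.6 and 83.1 CPM in 10% FEx, 82.3, 82.0 and 74.3 CPM in 2.5% FEx, and 74.2, 69.2 and 76.8 CPM in MB10, with overlap between all media. usp had a log2 fold change of 0.13 in 10% FEx (95% interval -0.02 to 0.27, adjusted p = 0.138) and 0.12 in 2.5% FEx (-0.03 to 0.26, adjusted p = 0.186). An exon of usp shares 265 bases with Actn on its own strand and 196 with CG4313 on the other, so reads there may be shared. Per kilobase of merged exons, usp exceeded EcR 4.05 to 4.10 times in the 10% FEx libraries, 3.14 to 4.18 times in the 2.5% FEx libraries and 2.60 to 3.86 times in the MB10 libraries. The ratios of 10% FEx were all above those of MB10 and also less spread.

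The early genes Eip74EF, Eip75B and br, which encode transcription factors, were not all called alike against MB10, and their calls changed with the length offset. Eip74EF (FBgn0000567, 3L from 17558672 to 17619325, minus strand) encodes an ETS-domain factor that the hormone induces directly. It was expressed at 44.2, 48.3 and 50.2 CPM in 10% FEx, at 46.7, 54.7 and 56.2 CPM in 2.5% FEx, and at 49.9, 52.8 and 49.8 CPM in MB10. The media overlapped, and the log2 fold changes of Eip74EF over MB10 were -0.10 (95% interval -0.27 to 0.08) and 0.05 (-0.13 to 0.22) in the 10% and 2.5% media. With the length offset by merged exons Eip74EF was called lower in both, at -0.48 and -0.30, so its side of the threshold depends on that choice.

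Eip75B (FBgn0000568, 3L from 17950953 to 18064696, minus strand) encodes the heme-binding nuclear receptor E75. It was expressed at 53.9, 58.0 and 61.5 CPM in 10% FEx, at 54.6, 55.8 and 60.0 CPM in 2.5% FEx, and at 42.1, 46.6 and 40.9 CPM in MB10. Every FEx library was above every MB10 library, as for 27.3% of all genes in 10% FEx and 25.2% in 2.5% FEx. Eip75B had a log2 fold change of 0.42 in 10% FEx (SE 0.0759, adjusted p = 0.000624) and 0.39 in 2.5% FEx (SE 0.0758, adjusted p = 0.00146). With the length offset by merged exons it was -0.05 and -0.02, and neither passed.

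br (FBgn0283451, X from 1575132 to 1664869, plus strand) encodes the zinc-finger proteins of the Broad locus, which direct the larval to pupal transition. It had the highest CPM of the 10 genes, with 224, 212 and 221 CPM in 10% FEx, 234, 233 and 249.98 CPM in 2.5% FEx, and 179, 197 and 162 CPM in MB10. Every FEx library was above every MB10 library. br had a log2 fold change of 0.29 in 10% FEx (SE 0.0742, adjusted p = 0.00606) and 0.41 in 2.5% FEx (SE 0.0742, adjusted p = 0.000866). With the length offset its sign turned in 10% FEx, to -0.27 by merged exons (adjusted p = 0.000534) and -0.14 by longest transcript (adjusted p = 0.0290). In 2.5% FEx the offset values of br were -0.06 and 0.04, and neither passed. The gene has 16 annotated transcripts, which gene counts do not separate.

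Eip78C and Hr4, further nuclear receptors of the cascade, were expressed at low levels and were higher in the FEx media. Eip78C (FBgn0004865, 3L from 21226609 to 21266503, plus strand) is related to E75. It had 80, 80 and 67 counts in 10% FEx, 74, 86 and 86 counts in 2.5% FEx, and 39, 44 and 36 counts in MB10. In CPM these were 2.83, 3.60 and 3.23, then 3.13, 3.54 and 3.57, and 1.96, 1.90 and 1.62 in MB10, with no overlap between either FEx medium and MB10. For Eip78C the log2 fold change was 0.81 in 10% FEx (SE 0.153, adjusted p = 0.000849) and 0.90 in 2.5% FEx (SE 0.151, adjusted p = 0.000560). It passed in every other setting tried, and with the length offset by merged exons it passed at 0.55 and 0.66.

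Hr4 (FBgn0264562, X from 1941940 to 2007956, plus strand) had the lowest level per length of the 10 genes. It had 57, 35 and 45 counts in 10% FEx, 22, 21 and 33 counts in 2.5% FEx, and 8, 16 and 12 counts in MB10. The corresponding values were 2.02, 1.58 and 2.17 CPM in 10% FEx, 0.929, 0.863 and 1.37 CPM in 2.5% FEx, and 0.402, 0.691 and 0.541 CPM in MB10. With 8 counts in its lowest MB10 library, Hr4 was kept for testing through FEx libraries. Its being higher in the FEx media was thus in part fixed by the filter. No pair of media overlapped, with the highest values in 10% FEx and the lowest in MB10. MB10 also differed in serum, bactopeptone and yeast extract. Hr4 was 3.47-fold higher in 10% FEx (log2 fold change 1.79, SE 0.261, adjusted p = 0.000125) and 1.90-fold higher in 2.5% FEx (0.93, SE 0.291, adjusted p = 0.0225) than in MB10.

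The larger change of Hr4 held in every setting in which the gene was kept, with 1.32 and 1.30 under the length offsets. The smaller one in 2.5% FEx did not pass without 2.5% FEx replicate 3 (0.71, adjusted p = 0.0947), without MB10 replicate 1 (0.78, adjusted p = 0.0769) or with either length offset (0.52 and 0.51). Of its 13899 exon bases, 46 overlap PIG-K on the opposite strand.

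ftz-f1 (FBgn0001078, 3L from 18750607 to 18801309, minus strand) encodes a nuclear receptor that is expressed as the hormone titer falls and prepares tissues for the next pulse. Its values were 53.5, 56.7 and 60.8 CPM in 10% FEx, 65.0, 64.3 and 72.5 CPM in 2.5% FEx, and 64.6, 77.5 and 56.5 CPM in MB10, where the spread was largest. The log2 fold change of ftz-f1 was -0.22 in 10% FEx (95% interval -0.44 to 0.01, adjusted p = 0.102) and 0.02 in 2.5% FEx (-0.20 to 0.25, adjusted p = 0.875). Without MB10 replicate 3 the value in 10% FEx was -0.32 and passed (adjusted p = 0.00548), and with the length offset by merged exons ftz-f1 was called lower in both media, at -0.57 and -0.29. A long noncoding RNA, lncRNA:CR45939, shares 2521 exon bases with ftz-f1 on its strand, so reads of the pair may not be separated.

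E23 and Eip71CD encode no transcription factor, and they changed in opposite directions. E23 (FBgn0020445, 2L from 3334875 to 3354829, minus strand) encodes an ABC transporter of the White family that is induced early and, when overexpressed in the fly, dampens the ecdysone response. It had 63, 63 and 46 counts in 10% FEx, 55, 54 and 68 counts in 2.5% FEx, and 12, 15 and 18 counts in MB10. These were 2.23, 2.84 and 2.22 CPM, then 2.32, 2.22 and 2.82 CPM, and 0.603, 0.648 and 0.812 CPM in MB10. The lowest FEx library was well above the highest MB10 library, and the FEx media overlapped with each other.

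E23 was 3.49-fold higher in 10% FEx (log2 fold change 1.80, SE 0.209, adjusted p = 2.02e-05) and 3.54-fold higher in 2.5% FEx (1.82, SE 0.208, adjusted p = 2.83e-05). It was the only one of the 10 genes that was DE in both media. With each library left out in turn its log2 fold change stayed between 1.68 and 1.94 in 10% FEx and between 1.73 and 1.96 in 2.5% FEx. With the length offset by merged exons it was 1.58 and 1.62.

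Eip71CD (FBgn0000565, 3L from 15511052 to 15513202, plus strand, current symbol MsrA) encodes a methionine sulfoxide reductase that was first found as an ecdysone-induced protein in cultured cells. It was expressed at 29.4, 26.1 and 26.8 CPM in 10% FEx, at 24.5, 24.7 and 23.4 CPM in 2.5% FEx, and at 33.5, 31.5 and 41.9 CPM in MB10. Every FEx library was below every MB10 library, as for 29.8% of all genes in 10% FEx and 26.3% in 2.5% FEx. The log2 fold change of Eip71CD was -0.38 in 10% FEx (SE 0.102, adjusted p = 0.00848) and -0.56 in 2.5% FEx (SE 0.103, adjusted p = 0.00110). It is a short gene, in the bin whose median log2 fold changes were -0.22 and -0.19, and with the length offset by merged exons it passed in 2.5% FEx (-0.39) but not in 10% FEx (-0.18, adjusted p = 0.0865).

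**Figure D3:**
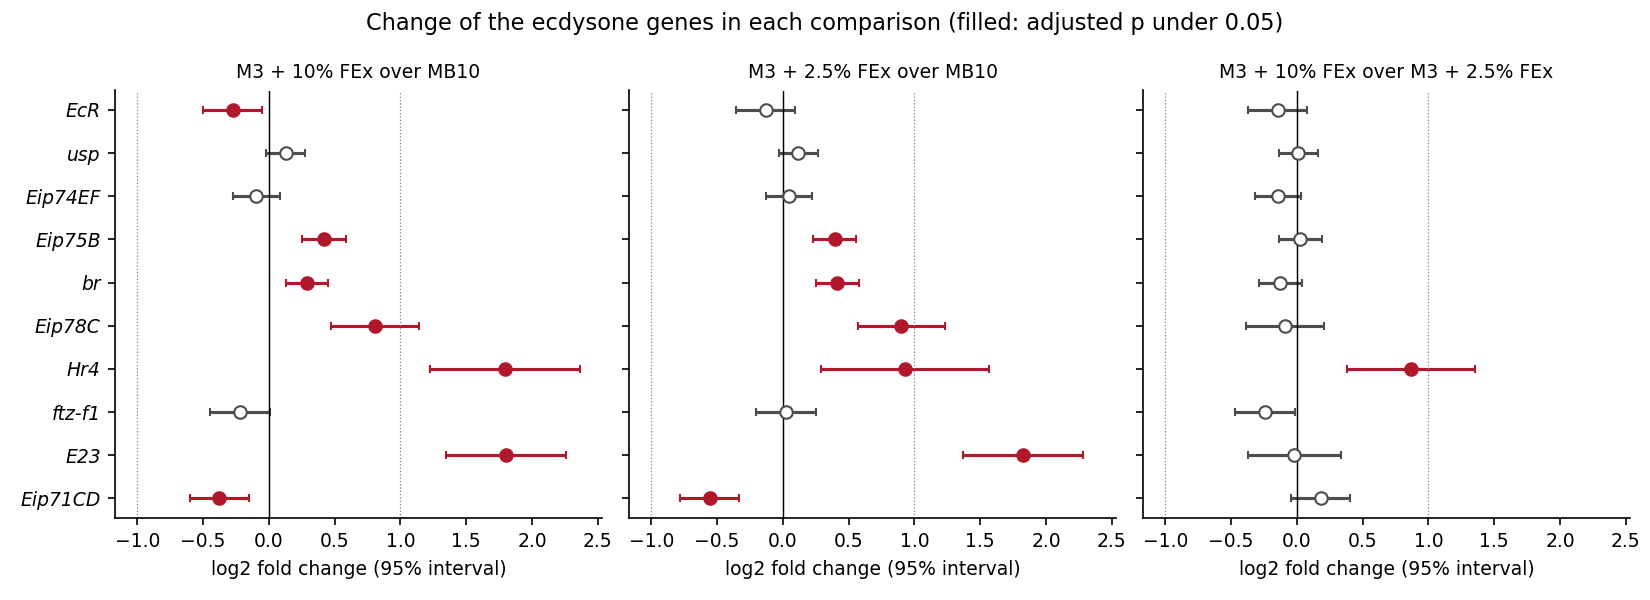
Log2 fold change with its 95% interval for the 10 ecdysone genes in 10% FEx over MB10, 2.5% FEx over MB10 and 10% FEx over 2.5% FEx. Filled red points passed an adjusted p under 0.05 and dotted lines mark -1 and 1. E23 lies at 1.80 and 1.82 over MB10, and Hr4 is the only gene that passed between the FEx media.

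**Figure D4:**
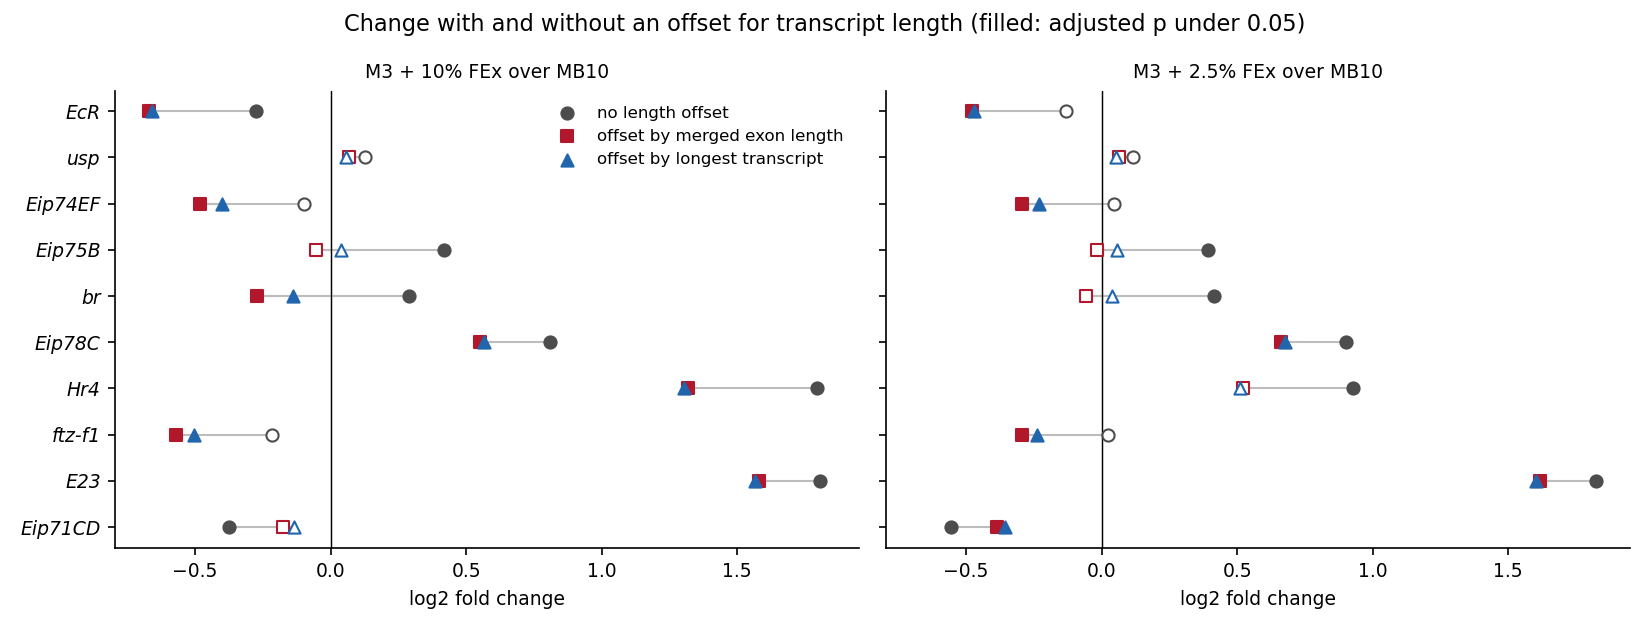
Log2 fold change over MB10 of the 10 ecdysone genes without a length offset (circles), with an offset by merged exon length (squares) and with one by longest transcript (triangles). Filled symbols passed an adjusted p under 0.05. E23 and Eip78C stay higher in both media and Hr4 in 10% FEx, whereas br moves from 0.29 to -0.27 in 10% FEx and Eip75B moves to near 0.

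Between the FEx media 1 of the 10 genes passed the test and was higher, against 21.8% of all genes tested (10.5% higher, 11.3% lower), and 0 were DE by edgeR or DESeq2, against 3.47% (2.42% DE and higher). At an unadjusted p under 0.05, Hr4 and ftz-f1 passed. Hr4 was 1.82-fold higher in 10% FEx than in 2.5% FEx (log2 fold change 0.86, SE 0.223, adjusted p = 0.0167). With a library left out it passed in 5 of 9 cases, not without 10% FEx replicate 1 or 3 or 2.5% FEx replicate 1 or 2 (adjusted p of 0.0575 to 0.0783), and its value ranged from 0.74 to 1.09. All 3 libraries of 10% FEx were above those of 2.5% FEx for Hr4 and Eip71CD, as for 23.3% of all genes, and all 3 were below for br and ftz-f1, as for 23.8%. ftz-f1 did not pass (-0.24, 95% interval -0.47 to -0.01, adjusted p = 0.125). With either length offset br and ftz-f1 were called lower in 10% FEx, at -0.21 and -0.28 by merged exons. For E23 the difference was -0.02, with a 95% interval of -0.37 to 0.33, and for Eip75B it was 0.03, with an interval of -0.14 to 0.19.

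Levels can be compared between genes only per length. In RPKM, here the CPM divided by the kilobases of merged exons, usp was at 26.4 ± 1.09 in 10% FEx, 26.2 ± 1.49 in 2.5% FEx and 24.2 ± 1.28 in MB10 (SD, n = 3). Eip71CD followed at 20.3 ± 1.29 and 17.9 ± 0.511, and in MB10 it was at 26.3 ± 4.10, with libraries that overlapped those of usp. Next was br at 10.8 ± 0.297, 11.8 ± 0.470 and 8.88 ± 0.873 RPKM in the same order of media, or at 22.3, 24.3 and 18.3 RPKM if its longest transcript is taken as its length. ftz-f1, EcR, Eip74EF and Eip75B lay at 3.21 to 7.84 RPKM on average, and in all 3 media the libraries of EcR and ftz-f1 overlapped. Eip78C had 0.548 ± 0.0655, 0.580 ± 0.0419 and 0.311 ± 0.0306 RPKM, and E23 had 0.472 ± 0.0688, 0.477 ± 0.0624 and 0.134 ± 0.0213 RPKM. Hr4 was last at 0.138 ± 0.0222, 0.0758 ± 0.0198 and 0.0392 ± 0.0104 RPKM. The median over all genes tested was 17.5 to 17.7 RPKM, so usp and, by its mean, Eip71CD were the 2 genes above it. The 3 genes with the largest fold changes were thus also the 3 with the lowest levels.

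A further 44 genes of the pathway were compiled in 4 lists, of which 25 were tested and 19 had too few counts. The lists were chosen with earlier results of these data known, so the counts below are no independent test. In 10% FEx 19 of the 25 were higher than in MB10, 3 were lower and 3 did not pass, with a median log2 fold change of 0.45, against 25.5% of all genes higher, 27.6% lower and the median of -0.04. In 2.5% FEx 17 were higher, 2 were lower and 6 did not pass, with a median of 0.35, against 22% of all genes higher, 22.2% lower and the same median. Of the 25, shd and Eip63F-1 had fewer than 10 counts in every MB10 library and so passed the filter on low counts only through libraries of the media in which they were high. With a floor of 10 counts in every library these counts were 17 higher and 3 lower of 23 in 10% FEx, and 16 higher and 2 lower of 23 in 2.5% FEx. With the length offset by merged exons 13 were higher and 4 lower in 10% FEx, and 10 were higher and 5 lower in 2.5% FEx, beside the shares of all genes given above for that offset. The median log2 fold change of the 25 genes was then 0.22 in 10% FEx and 0.13 in 2.5% FEx. The genes that were DE against MB10 are described below, and any other gene named was chosen after its values were seen.

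Among cofactors, partners and the importer of the hormone, 5 of 8 genes were tested and all 5 were higher in both media, against 25.5% of all genes in 10% FEx and 22% in 2.5% FEx. They were tai, a coactivator of EcR, the corepressor Smr, the EcR-binding protein rig, the histone methyltransferase trr and Oatp74D, which carries ecdysone into cells. Their log2 fold changes were 0.22 to 0.60 in 10% FEx and 0.35 to 0.70 in 2.5% FEx. With the length offset by merged exons, 2 of the 5 still passed in 10% FEx (trr and Oatp74D) and 2 in 2.5% FEx (rig and Oatp74D), while Smr was at -0.04 and -0.03 and did not pass. rig in 10% FEx also did not pass without 10% FEx replicate 2 (adjusted p = 0.0632) or MB10 replicate 1 (adjusted p = 0.0615). Oatp74D was expressed at 63.9, 70.3 and 77.3 CPM in 10% FEx, at 88.6, 86.6 and 88.5 CPM in 2.5% FEx, and at 56.5, 57.0 and 48.7 CPM in MB10. It was lower in 10% FEx than in 2.5% FEx (log2 fold change -0.32, SE 0.0815, adjusted p = 0.0158), a call that was lost without 10% FEx replicate 1 or 2 or without any 1 of the 2.5% FEx libraries, at adjusted p of 0.0530 to 0.0705.

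All 9 other early and early-late regulators were tested, and 5 were higher and 2 lower in each medium, against 25.5% and 27.6% of all genes in 10% FEx and 22% and 22.2% in 2.5% FEx. Hr3, a nuclear receptor that activates ftz-f1 in prepupae, had 66, 31 and 36 counts in 10% FEx, 22, 22 and 27 in 2.5% FEx, and 12, 12 and 10 in MB10. It was 3.53-fold higher in 10% FEx (log2 fold change 1.82, SE 0.259, adjusted p = 0.000107) and 1.88-fold higher in 2.5% FEx (0.91, SE 0.292, adjusted p = 0.0248). The value in 2.5% FEx did not pass with the length offset by merged exons (0.55, adjusted p = 0.162), without 2.5% FEx replicate 3 (adjusted p = 0.0779) or without MB10 replicate 3 (adjusted p = 0.0702). Between the FEx media Hr3 differed by 0.91 (adjusted p = 0.0125), but not without 10% FEx replicate 1 (0.66, adjusted p = 0.0683) or 2.5% FEx replicate 2 (0.85, adjusted p = 0.0556).

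Eip93F, which encodes E93, a factor that specifies adult fates, was expressed at 11.2, 11.5 and 9.54 CPM in 10% FEx, at 6.21, 6.13 and 7.18 CPM in 2.5% FEx, and at 3.22, 3.45 and 3.56 CPM in MB10. No media overlapped. The log2 fold change of Eip93F over MB10 was 1.66 in 10% FEx (SE 0.119, adjusted p = 3.14e-07) and 0.93 in 2.5% FEx (SE 0.125, adjusted p = 0.000106), and it was 0.73 between the FEx media (adjusted p = 0.000623). Under the merged-exon length offset it passed at 1.20 in 10% FEx and at 0.53 in 2.5% FEx.

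cbt, which encodes a zinc-finger factor of the Krüppel-like family, moved in the other direction. It was expressed at 58.9, 67.4 and 66.8 CPM in 10% FEx, at 105, 109.9 and 114 CPM in 2.5% FEx, and at 179, 183 and 165 CPM in MB10. It was 2.73-fold lower in 10% FEx (log2 fold change -1.45, SE 0.0715, adjusted p = 9.81e-09) and also lower in 2.5% FEx (log2 fold change -0.68, SE 0.0698, adjusted p = 1.09e-05). Blimp-1, a repressor induced by the hormone in prepupae, was the other lower gene of the list in both media, at -0.60 and -0.51, the smaller of which did not pass without 2.5% FEx replicate 2 or 3 or without MB10 replicate 2 (adjusted p up to 0.0767).

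Of 15 other inducible or late genes 10 were tested, with 8 higher and 1 lower in 10% FEx, and 7 higher and 3 that did not pass in 2.5% FEx, against 25.5% of all genes higher in 10% FEx and 22% in 2.5% FEx. rpr, which triggers apoptosis by blocking the inhibitor Diap1, was higher in both media. It was expressed at 49.7, 50.5 and 50.9 CPM in 10% FEx, at 35.3, 37.7 and 42.4 CPM in 2.5% FEx, and at 11.4, 11.6 and 11.1 CPM in MB10. It was 4.43-fold higher in 10% FEx (log2 fold change 2.15, SE 0.0821, adjusted p = 1.01e-09) and 3.38-fold higher in 2.5% FEx (1.76, SE 0.0822, adjusted p = 8.68e-09). The length offset by merged exons gave 2.42 and 1.98, and the difference between the FEx media was 0.39 (adjusted p = 0.00322). hid, a proapoptotic gene of the same kind, passed at 0.92 and 0.73.

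ImpL3, which encodes lactate dehydrogenase (current symbol Ldh), was expressed at 44.1, 39.5 and 75.9 CPM in 10% FEx, at 28.7, 28.0 and 20.7 CPM in 2.5% FEx, and at 23.7, 21.2 and 18.4 CPM in MB10. It passed in 10% FEx (1.33, SE 0.219, adjusted p = 0.000320) but not in 2.5% FEx (0.29, SE 0.223, adjusted p = 0.311), and the FEx media differed (1.04, adjusted p = 0.00509). Without 10% FEx replicate 3, the highest library, both differences still passed but fell below the fold threshold for DE, at 0.99 and 0.70, and without 2.5% FEx replicate 3 the FEx media differed by 0.90. Eip63F-1, which encodes a calcium-binding protein, had 25, 11 and 13 counts in 10% FEx, 10, 12 and 16 in 2.5% FEx, and 5, 3 and 6 in MB10. It was kept for testing through FEx libraries, and was not kept when 2.5% FEx and MB10 were fitted alone, so its being higher in the FEx media was in part fixed by the filter. Its log2 fold changes were 1.65 (adjusted p = 0.00344) and 1.27 (adjusted p = 0.0244), and the smaller one did not pass by DESeq2 (adjusted p = 0.0605), without 2.5% FEx replicate 3 or without MB10 replicate 2.

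Of the 12 genes for synthesis and inactivation of ecdysteroids, 11 had too few counts to be tested. The exception was shd, the enzyme that converts ecdysone to its active form, with 26, 21 and 20 counts in 10% FEx, 6, 5 and 2 in 2.5% FEx, and 8, 4 and 3 in MB10. It was kept for testing only through the 10% FEx libraries, so its being higher there was in part fixed by the filter. Its log2 fold change was 2.01 in 10% FEx (SE 0.365, adjusted p = 0.000647) and -0.34 in 2.5% FEx (95% interval -1.48 to 0.79), and the direct difference between the FEx media was 2.35 (adjusted p = 0.000989).

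**Figure D5:**
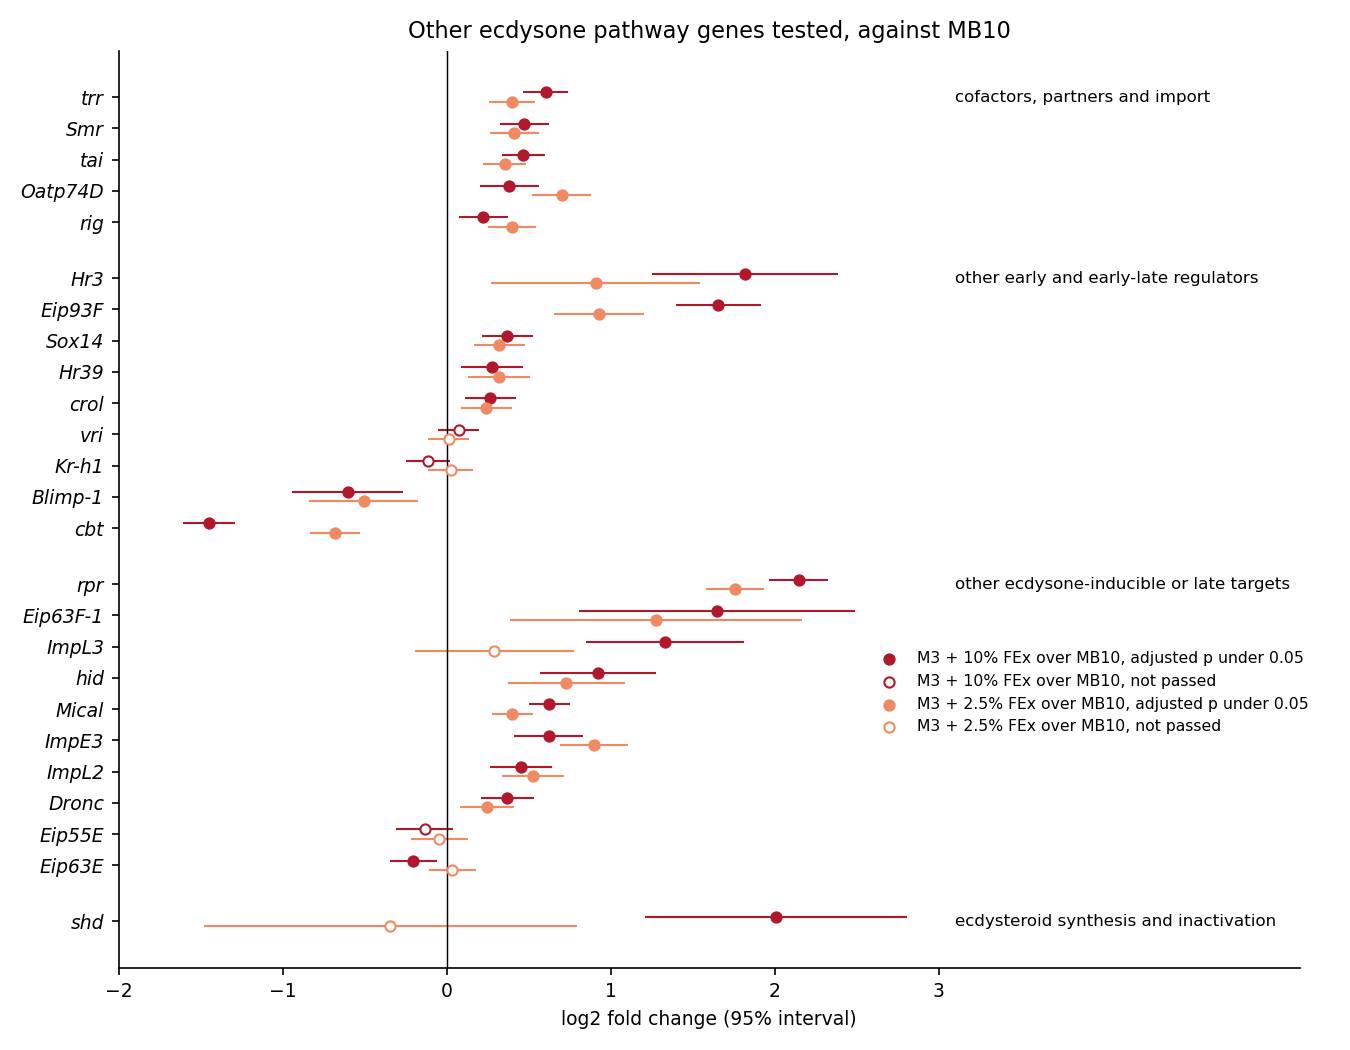
Log2 fold change over MB10, with 95% interval, of the 25 other ecdysone pathway genes tested, grouped by list, in 10% FEx (red) and 2.5% FEx (orange). Filled points passed an adjusted p under 0.05. rpr lies farthest to the right at 2.15 and 1.76, and cbt farthest to the left in 10% FEx at -1.45. The comparison between the FEx media is not plotted. There 7 of the 25 genes were higher in 10% FEx and 4 lower, against 10.5% and 11.3% of all genes tested. Of these genes, shd was kept for testing only through the 10% FEx libraries.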

How the data were processed

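Read counts per gene of 9 libraries (stranded mRNA kit, paired-end) were used as the authors deposited them. Per the labels' tools and the paper's methods, the authors demultiplexed with bcl2fastq 2.20.0, mapped with HISAT2 2.1.0 and counted with featureCounts 1.6.4, without normalization. The labels' tools also list the read trimmer Trimmomatic 0.36 and SAMtools. The strand and multi-mapping settings of the counting are not given in the sources used here. Coordinates, lengths and exon overlaps were read from Ensembl's BDGP6.54 annotation, on the same assembly but later than the authors' annotation. Of 17562 gene IDs, 17477 matched a symbol.

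Libraries were grouped by medium. Counts were filtered with filterByExpr, then normalized by TMM and tested with edgeR 4.0.16 (R 4.3.3), in 1 model of all 9 libraries. The quasi-likelihood fit was tested on simulated data. Standard errors were computed as |log2 fold change| over the root of the F statistic. Alternatives were DESeq2 1.42.0, DESeq2 size factors, 2 other filters, a fit of the 2 media compared, a replicate block, each library left out, and offsets from a loess curve of log2 CPM on length. The replicate libraries of a medium differed beyond counting error (a chi-square per degree of freedom between 10.2 and 68.1). The members and lists were chosen with earlier results of these data known. By rule, the 10 members were named, and of other pathway genes those that were DE against MB10; the cofactors, Blimp-1, hid and the marker genes were named after their values were seen.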

Additional observations from a re-analysis of the deposited data

How the results depend on the processing

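Of 507 values of the 10 genes under alternatives, 457 kept their direction or lack of a call and their side of the threshold. Changes of sign where neither fit gave a call are among the 457. Of the others, 26 lost their call, 15 gained one and 9 changed sign with a call in either fit. These 9, and 7 of tai and Smr, came with the length offsets. In 10% FEx against MB10, merged exon length gave -0.0534 for Eip75B, -0.27 for br and -0.0395 for Smr, and longest transcript gave -0.14 for br, -0.00849 for tai and -0.0815 for Smr. In 2.5% FEx against MB10, merged exon length gave -0.30 for Eip74EF, -0.0167 for Eip75B, -0.0568 for br, -0.29 for ftz-f1, -0.0362 for tai and -0.0268 for Smr, and longest transcript gave -0.23 for Eip74EF, -0.24 for ftz-f1, -0.0576 for tai and -0.0552 for Smr. The cause was not tested.

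A floor of 10 counts for a gene in each library removed Hr4, which left 1 DE gene of the 10 in 10% FEx and 0 that passed between the FEx media. It also removed Eip63F-1 and shd. Of the other pathway genes, 1 was then DE in 2.5% FEx, and 1 different gene was DE between the FEx media. Over all genes it left 7910 tested against 8705, and gave 554, 406 and 152 DE genes against 955, 742 and 302. The genes it removed had low counts and could no longer be called. DESeq2 and the fit of the media compared each gave 1 other pathway gene DE in 2.5% FEx, against 2. Between the FEx media the fit of those media gave 2 of the 10 genes, and 2904 of all genes against 1896, while the length offsets gave 3 of the 10. Leaving out each library gave 1 to 2 DE genes of the 10 in 2.5% FEx, and between the FEx media 0 to 2 that passed and 0 to 1 that were DE. For the other pathway genes it gave 1 to 3 DE in 2.5% FEx, and between the FEx media 6 to 12 that passed and 1 to 3 that were DE; over all genes 1094 to 2686 passed there. By longest transcript, 4 of the 10 genes were above 10 RPKM in MB10, against 2.

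With the replicate number as a block, 6, 6 and 1 of the 10 genes passed in 10% FEx, 2.5% FEx and between the FEx media, and EcR lost its call (adjusted p = 0.0697). Deviations from the medium means correlated between libraries of 1 number at -0.07 to 0.07 for 10% FEx and MB10, -0.36 to -0.15 for 2.5% FEx and MB10, and -0.02 to 0.08 for the FEx media. The library of the same number was the best match in 1, 0 and 2 of 3 cases in that order. With 3 libraries per medium these values cannot settle whether the numbers pair the libraries. Low counts limit Hr4, Eip63F-1 and shd most.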
